A study of Homo sapiens with 4 samples.

Results

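Ferritin, the protein shell in which cells store iron, is built from a light chain (*FTL*) and a heavy chain (*FTH1*). The mRNA of both chains was lower in OVCA420 cells under TGF-β1 than in untreated cells, and so was the mRNA of the iron exporter ferroportin (*SLC40A1*). The level of *TFRC*, which encodes the transferrin receptor that brings iron in, was lower at 1-day and close to Ctrl at 7-day. These genes and 6 others of iron handling, 10 of the 33694 genes in the files, were taken by their symbols. They were chosen because *FTL* and *FTH1* had been seen to be lower in these same libraries, so the values below are a description and not a test.

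OVCA420 cells derive from a human epithelial ovarian cancer. They received the cytokine TGF-β1 at 10 ng/mL, which induces the epithelial-mesenchymal transition (EMT). The 4 groups are untreated cells (Ctrl) and cells treated for 1, 3 and 7 days (1-day, 3-day and 7-day), with 1 droplet-based scRNA-seq library per group. Start times were staggered to a common collection, and fresh TGF-β1 was given with each change of medium. A single cell line was used, each time point is 1 library, and a difference between time points therefore has no replicate check and was not tested.

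Iron enters cells bound to transferrin through *TFRC*, is reduced in endosomes by *STEAP3* and leaves them through *SLC11A2* (DMT1). In the cytosol, the chaperone *PCBP1* delivers iron to ferritin, *NCOA4* carries ferritin to the lysosome when iron is needed, and *SLC40A1* exports what remains. Iron levels are read by the iron regulatory proteins, encoded by *ACO1* (IRP1) and *IREB2* (IRP2). These proteins bind a hairpin in mRNAs called the iron-responsive element (IRE). A hairpin in the 5′ UTR allows them to block translation, as in the ferritin mRNAs, and hairpins in the 3′ UTR allow them to protect the mRNA from decay, as in *TFRC*.

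The hairpins are shown because they are what the ferritin, receptor and exporter mRNAs share in sequence, and the choice of genes did not use them. The search was for a C, 5 bases of any kind and the loop CAGTGN, followed by 5 more bases, on the mRNA strand of GENCODE release 44 transcripts (GRCh38), with the bases before the loop pairing with those after it, G-T pairs included. Capitals mark the 6-base loop in stretches of at most 30 bases.
*FTL*, 5′ UTR: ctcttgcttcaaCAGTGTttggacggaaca
*FTH1*, 5′ UTR: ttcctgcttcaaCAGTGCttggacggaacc
*SLC40A1*, 5′ UTR: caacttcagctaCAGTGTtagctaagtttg
*TFRC*, 3′ UTR, element 1: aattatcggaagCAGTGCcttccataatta
*TFRC*, 3′ UTR, element 2: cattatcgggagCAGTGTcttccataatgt
*TFRC*, 3′ UTR, element 3: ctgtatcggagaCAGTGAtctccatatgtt
*TFRC*, 3′ UTR, element 4: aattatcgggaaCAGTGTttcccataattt
The 17-base core of the *FTL* element lies at chr19:48965341-48965357 on the plus strand. That of *FTH1* lies at chr11:61967580-61967596 and that of *SLC40A1* at chr2:189580667-189580683, both on the minus strand. From element 1 to element 4, the *TFRC* cores lie at chr3:196050985-196051001, chr3:196050581-196050597, chr3:196050516-196050532 and chr3:196050469-196050485, all on the minus strand. The *FTL* and *FTH1* cores differ by a single substitution from *FTL* to *FTH1*, T12C, counted from 1 at the C that opens the core. The element was found in 1 of 1 searched transcripts of *FTL*, 7 of 8 of *FTH1* and 1 of 5 of *SLC40A1*. Each *TFRC* element was found in 10 of 11. The counts per gene used here do not tell the transcripts of a gene apart. Among canonical coding transcripts, 19 of 19249 5′ UTRs (0.0987%) and 121 of 19253 3′ UTRs (0.628%) hold such a hairpin. No match to these letters was found in the transcripts of *SLC11A2*, *IREB2*, *ACO1*, *NCOA4*, *PCBP1* or *STEAP3*, which says nothing of other forms of the element. Such forms were not searched in the genes with a match either, so the numbering of the *TFRC* elements covers only these matches. A match is a sequence description, and binding was not measured.

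The files give counts of unique molecular identifiers (UMIs), each 1 captured mRNA end, so levels were not divided by transcript length. The first 3170 complete cells in barcode order, of 10710 listed, were used, and 3144 were retained, with 569 to 937 cells and 25382817 to 32949874 UMIs per library. Median UMIs per cell ran from 30270 in Ctrl to 43553 at 3-day, the median mitochondrial share from 8.31% in Ctrl to 6.22% at 3-day, and the share of cells scored G1 was 21.8%, 77.9%, 44.8% and 35.1% in Ctrl, 1-day, 3-day and 7-day. The part of these differences in the results was not tested. Libraries shared 23 barcodes among the cells used, counted over the 6 pairs of libraries. *EPCAM* and the 4 keratins on the list of epithelial markers were above 10 CPM in every library, while *PAX8*, *WT1* and *MSLN* were at most at 1 CPM. *MUC16*, also on this list, was at 2.97 CPM in Ctrl and 0.425, 0.124 and 0.197 CPM at 1-day, 3-day and 7-day. Markers of ferritin-rich cell types were low, but some moved with treatment. The 8 macrophage markers summed to 2.23 CPM in Ctrl and up to 11.2 CPM at 3-day, with *C1QA* and *C1QB* at 0, *CD68* between 1.53 and 6.19 CPM and *CSF1R* between 0 and 6.38 CPM, both lowest in Ctrl. The 4 hepatocyte markers summed to 9.17 CPM in Ctrl and 0.433 CPM at 7-day, mostly *ALB* (8.60 and 0.0394 CPM), and so were lower along with *FTL*. The 5 erythroid markers summed to at most 0.400 CPM. Their part in the results was not tested.

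*FTL* was the most abundant of all genes in Ctrl, at 34935 CPM (UMIs per 1000000 UMIs of the library, 95% counting interval 34868 to 35002). It was at 17046, 9240.4 and 10058 CPM at 1-day, 3-day and 7-day. Every treated library was below Ctrl, and the lowest level was at 3-day. The log2 ratio to Ctrl stood at -1.04 for 1-day (exact 95% counting interval -1.04 to -1.03), -1.92 for 3-day (-1.92 to -1.91) and -1.80 for 7-day (-1.80 to -1.79). The intervals of all levels and ratios here cover counting error only and say nothing of the spread between cultures. *FTL* took rank 1 at 1-day as well, and ranks 8 and 7 at 3-day and 7-day. The gene (ENSG00000087086) lies on chromosome 19 of GRCh38 from 48965309 to 48966879.

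*FTH1*, which carries the ferroxidase activity of ferritin, was at 20858 CPM in Ctrl, against 14956, 10325 and 10833 CPM at 1-day, 3-day and 7-day. The order of the libraries was that of *FTL*, with smaller differences. The log2 ratio to Ctrl was -0.48 at 1-day, -1.01 at 3-day and -0.95 at 7-day (-0.95 to -0.94). *FTL* and *FTH1* differed by -0.88 and -0.53 from 1-day to 3-day and by 0.12 and 0.07 from 3-day to 7-day on the log2 scale. Between neighbouring times, 1 member (*SLC40A1*) was at least 2-fold lower at 3-day than at 1-day and 0 were as much higher, where 4.44% and 5.69% of all genes were, and from 3-day to 7-day 0 members were past this fold, where 1.7% of all genes were lower and 2.5% higher. *FTH1* (ENSG00000167996) lies on chromosome 11 from 61959718 to 61967634. GENCODE lists 16 *FTL* and 25 *FTH1* pseudogenes by name, none of which is a row of the files. Reads shared with such copies were not examined, so their part in both levels is not known.

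**Figure D1:**
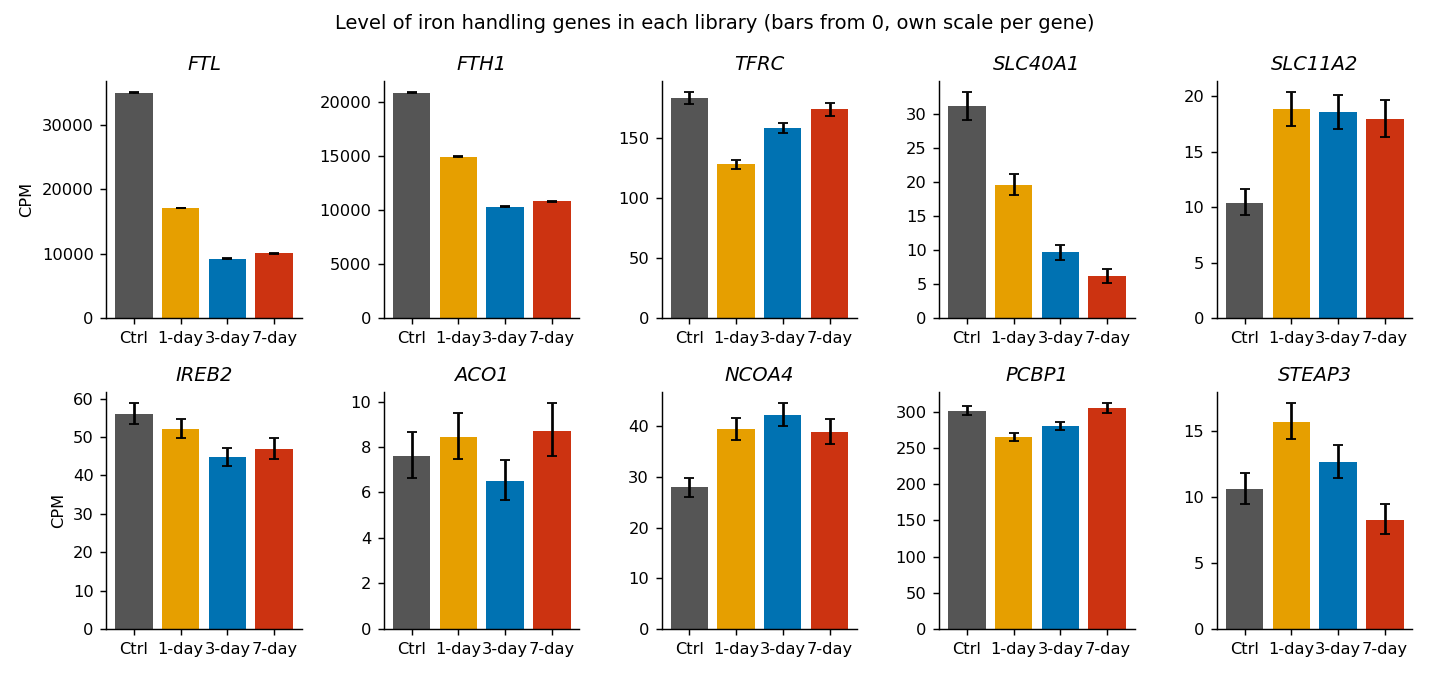
Level of each of the 10 genes in CPM (vertical axis, own scale per gene, from 0) in each of the 4 libraries, with exact 95% counting intervals. *FTL* and *FTH1* are lower in every treated library, *SLC40A1* is lower at each later time, and *SLC11A2* and *NCOA4* are above Ctrl in every treated library.

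Both chains together took 5.58% of all UMIs in Ctrl and 3.20%, 1.96% and 2.09% of those at 1-day, 3-day and 7-day. The difference was also present without any scaling. A retained cell held on average 1794 ferritin UMIs in Ctrl and 1125, 892.0 and 931.9 at 1-day, 3-day and 7-day, although the 3-day and 7-day cells held more UMIs in all. Since ferritin mRNA was such a large part of the libraries, levels were also scaled to totals without it, and the 7-day log2 ratio was then -1.85 for *FTL* and -0.998 for *FTH1*. Less mRNA per cell and a larger total of other mRNA cannot be told apart in these counts.

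Only *FTL* was at least 2-fold lower than Ctrl at 1-day, where 10.6% of the 12693 genes with a mean of at least 1 CPM were as much lower. At 3-day it was joined by *FTH1* and *SLC40A1* (3 of 10 genes, with 8.54% of all genes past this fold), and at 7-day *FTL* and *SLC40A1* were past it (2 of 10, with 7.85% of all genes). Some of these calls stood at the edge of this fold. *FTL* at 1-day was inside it with median-of-ratios scaling (-0.95) and among the earlier cells in barcode order (-0.99), and *SLC40A1* at 1-day was past it among G1 cells (-1.39). For *FTH1*, with median-of-ratios scaling the ratio was inside it at 3-day (-0.99) and past it at 7-day (-1.003). Over all retained cells, no member was at least 2-fold higher than Ctrl at any time, where 10.2%, 10.9% and 12.9% of all genes were at 1-day, 3-day and 7-day. These genes were chosen on the same contrast, so nothing is read from their counts. Of all 12662 genes with a 7-day ratio, 2.95% had a lower one than *FTL*, 8.42% than *FTH1* and 1.83% than *SLC40A1*.

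**Figure D2:**
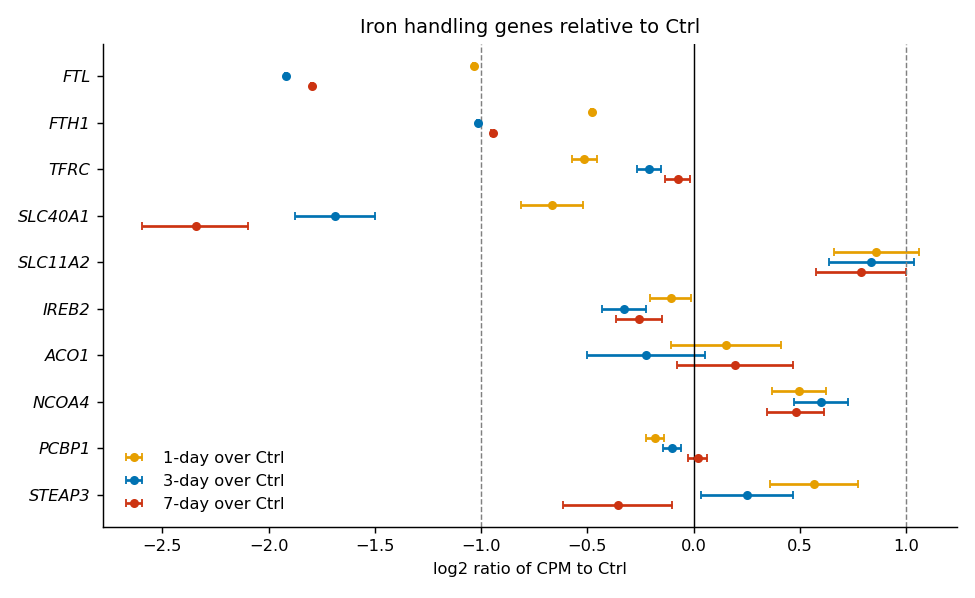
Log2 ratio of CPM to Ctrl (horizontal axis) of the 10 genes at 1-day, 3-day and 7-day, with exact 95% counting intervals; dashed lines mark a fold of 2 in either direction. *FTL*, *FTH1* and *SLC40A1* lie to the left at all times, and the 7-day points of *TFRC*, *PCBP1* and *ACO1* lie within 0.20 of 0.

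The lower ferritin levels were found across the cells of a library and not in a few of them. To compare cells at equal depth, each was thinned to 18000 UMIs. Shallower cells, 89 in Ctrl and 37, 28 and 20 at 1-day, 3-day and 7-day, were left out. The median thinned cell held 588.5 *FTL* UMIs in Ctrl, with 10% and 90% quantiles of 357.9 and 934.4. It held 279.5 (148 to 502) at 1-day, 155 (88 to 257.8) at 3-day and 169 (100.8 to 270.2) at 7-day. Most treated cells lay below the 10% quantile of Ctrl, namely 71.1%, 97.8% and 97.4% for 1-day, 3-day and 7-day. A single 3-day cell of 677 and a single 7-day cell of 549 held more *FTL* than the Ctrl median.

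For *FTH1*, the median thinned cell held 363 UMIs in Ctrl and 249.5, 170.0 and 169 UMIs at 1-day, 3-day and 7-day. The cells of Ctrl and of the treated libraries overlapped more than for *FTL*. Below the 10% quantile of Ctrl (241.3 UMIs) lay 47.9%, 80.4% and 80.5% of the cells at 1-day, 3-day and 7-day, and above the Ctrl median lay 16.4%, 2.95% and 4.92%. Every retained cell had UMIs of both genes, and as the libraries hold 1 cell line, no cells that lack ferritin were there to measure the part of free RNA. The coefficient of variation of thinned *FTL* counts over cells was between 38.5% and 47.7% in the 4 libraries, against 4.0% to 7.74% that counting alone would give. Cells rich in one chain tended to be rich in the other. Across the thinned cells of a library, which share its chemistry and free RNA, the Spearman rho of *FTL* and *FTH1* was 0.61 in Ctrl (844 cells), 0.65 at 1-day (900), 0.54 at 3-day (677) and 0.49 at 7-day (549).

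The balance of the chains shifted towards *FTH1* in the treated libraries. Summed over all cells, *FTH1* UMIs outnumbered those of *FTL* at 3-day and 7-day, but at 7-day this held only for cells scored G1. There were 0.597 *FTH1* UMIs per *FTL* UMI in Ctrl (95% counting interval 0.595 to 0.599), 0.877 at 1-day (0.874 to 0.881), 1.12 at 3-day (1.11 to 1.12) and 1.08 at 7-day (1.07 to 1.08). This ratio is taken within a library and does not depend on its scaling. The share of thinned cells with more *FTH1* than *FTL* was 6.16% in Ctrl and 35.3%, 59.7% and 50.3% for 1-day, 3-day and 7-day. The ratio varied among cells of the same library, with 10% and 90% quantiles of 0.426 and 0.886 in Ctrl and of 0.666 and 1.78 at 7-day.

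**Figure D3:**
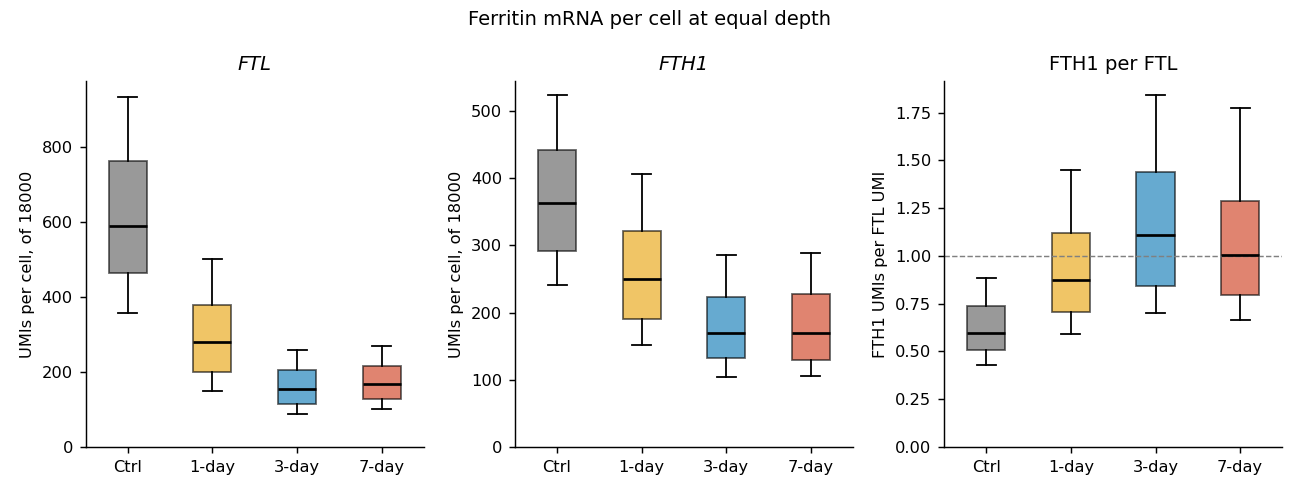
*FTL* UMIs (left), *FTH1* UMIs (middle) and *FTH1* UMIs per *FTL* UMI (right) per cell thinned to 18000 UMIs in the 4 libraries. Boxes span the middle quartiles with the median, and whiskers the 10% to 90% quantiles over cells. The *FTL* medians run from 588.5 in Ctrl to 155 at 3-day and 169 at 7-day, and the median ratio from 0.599 in Ctrl to 1.11 at 3-day and 1.00 at 7-day.

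The receptor *TFRC* had another time course than ferritin. It was at 182.6 CPM in Ctrl, against 127.8, 157.8 and 173.3 CPM at 1-day, 3-day and 7-day. The 1-day library was thus the lowest, and the 7-day level lay close to that of Ctrl. The log2 ratio to Ctrl was -0.52 at 1-day (-0.57 to -0.46), -0.21 at 3-day (-0.27 to -0.16) and -0.08 at 7-day (-0.13 to -0.02), and among G1 cells the 7-day ratio was -0.004. For each *TFRC* UMI there were 305.5 ferritin UMIs in Ctrl and 250.5, 124.0 and 120.5 for 1-day, 3-day and 7-day. Across the thinned cells of a library, *TFRC* counts, with a median of 2 or 3 UMIs, had a Spearman rho with *FTL* between -0.03 and 0.03. With *FTH1* the rho was 0.03 in Ctrl and -0.001, 0.11 and 0.04 at 1-day, 3-day and 7-day. *TFRC* (ENSG00000072274) lies on chromosome 3 from 196012511 to 196082153.

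Of the endosomal partners of the receptor, *SLC11A2* was higher in every treated library. This iron transporter was at 10.4 CPM in Ctrl, against 18.8, 18.5 and 17.9 CPM at 1-day, 3-day and 7-day. The 3 treated levels differed by less than their counting intervals, and the log2 ratios to Ctrl were 0.86, 0.84 and 0.79 (0.58 to 1.00). At equal depth it was detected in 16.7% of Ctrl cells (exact binomial interval 14.3% to 19.4%) and in 26.4%, 27.03% and 24.2% of 1-day, 3-day and 7-day cells. Without thinning, the shares were 26.7%, 44.7%, 52.2% and 49.2%.

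*STEAP3*, the ferrireductase of the endosome, moved both ways around Ctrl. It was at 10.6 CPM in Ctrl, against 15.7, 12.6 and 8.27 CPM at 1-day, 3-day and 7-day. The log2 ratio was 0.57 at 1-day (0.36 to 0.77), 0.25 at 3-day (0.03 to 0.47) and -0.36 at 7-day (-0.62 to -0.10). The 7-day ratio was uneven among cells of the libraries, at -0.07 in the first part of the cells in barcode order and -0.70 in the second part.

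The exporter *SLC40A1* was lower at each later time. It was at 31.2 CPM in Ctrl (29.2 to 33.2), 19.6 CPM at 1-day (18.2 to 21.2), 9.68 CPM at 3-day (8.63 to 10.8) and 6.15 CPM at 7-day (5.22 to 7.19). None of these intervals overlapped. Its log2 ratio to Ctrl was -0.67 at 1-day, -1.69 at 3-day and -2.34 at 7-day (-2.60 to -2.10). From 3-day to 7-day, *SLC40A1* and *STEAP3* were the members that were lower by more than the counting interval, with log2 ratios of -0.65 and -0.61. At equal depth it was detected in 29.4% of Ctrl (26.3% to 32.6%), 22.2% and 14.5% of 1-day and 3-day cells and 10.2% of those at 7-day (7.80% to 13.0%), and without thinning in 41.1%, 35.5%, 28.2% and 20.6%. For each *TFRC* UMI there were 0.171 *SLC40A1* UMIs in Ctrl and 0.0355 at 7-day. In Ctrl the gene was unevenly spread over cells. The 10 cells with most of its UMIs held 22.4% of them, and the coefficient of variation of thinned counts was 250% against 138% from counting alone. Without the 10 such cells of each library, the 7-day log2 ratio was -2.32. *SLC40A1* (ENSG00000138449) lies on chromosome 2 from 189560590 to 189583758.

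The genes of the iron regulatory proteins differed little. *IREB2*, whose protein is degraded when iron is plentiful, was at 56.1 CPM in Ctrl, against 52.1, 44.7 and 46.9 CPM at 1-day, 3-day and 7-day. Its log2 ratios to Ctrl were -0.11, -0.33 and -0.26, all below 0 by more than the counting interval. With median-of-ratios scaling the 1-day ratio was -0.02, and among G1 cells the 7-day ratio was -0.09. *ACO1*, whose protein serves as an aconitase when it holds an iron-sulfur cluster, was at 7.60 CPM in Ctrl and 8.44, 6.50 and 8.71 CPM at 1-day, 3-day and 7-day. A difference of *ACO1* from Ctrl was not detectable at this depth, with log2 ratios of 0.15 (-0.11 to 0.41), -0.23 (-0.50 to 0.05) and 0.20 (-0.08 to 0.47).

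*NCOA4*, the cargo receptor for ferritin in autophagy, which binds the heavy chain, was higher in each treated library, where *FTH1* was lower. It was at 27.9 CPM in Ctrl, against 39.4, 42.3 and 38.9 CPM at 1-day, 3-day and 7-day. The log2 ratios to Ctrl were 0.50 (0.37 to 0.62), 0.60 (0.47 to 0.72) and 0.48 (0.35 to 0.61). The 1-day and 7-day levels differed by less than their counting intervals. At equal depth *NCOA4* was detected in 39.9% of Ctrl (36.6% to 43.3%) and 48.8%, 51.7% and 51.0% of 1-day, 3-day and 7-day cells, and without thinning in 54.3%, 69.6%, 81.4% and 75.7%. *PCBP1*, the iron chaperone, was at 301.6 CPM in Ctrl, against 265.8, 280.8 and 305.6 CPM at 1-day, 3-day and 7-day. Its 7-day log2 ratio of 0.02 (-0.02 to 0.06) did not differ from 0 by more than the counting interval, and it was -0.04 with median-of-ratios scaling. Among G1 cells it was 0.15, with 254.2 CPM in Ctrl (241.6 to 267.4) against 282.1 CPM at 7-day (271.1 to 293.5).

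As the share of G1 cells differed among libraries, levels were also taken within cell cycle phases. The phase gene lists hold none of the 10 genes, but the background genes of the score were not restricted in this way. *FTL* in G1 cells was at 38491 CPM in Ctrl, against 17198, 9792 and 10147 CPM at 1-day, 3-day and 7-day. In G2M cells it was at 33123, 16118, 8572 and 9878 CPM, so its order across libraries was the same in both phases. *FTH1* in G1 cells was at 23543, 15617, 11998 and 13716 CPM, and in G2M cells at 19151, 12590, 8648 and 9142 CPM. *FTL* and *FTH1* were thus each higher in G1 than in G2M cells of every library, and at 7-day the ratio of *FTH1* to *FTL* was 1.35 among G1 cells. In the S cells of 7-day *FTL* was the higher chain, at 10194 CPM against 9577 CPM of *FTH1*. The same held for the G2M cells of 7-day, at 9878 CPM against 9142 CPM. In Ctrl, *SLC40A1* had the largest ratio of G1 to G2M levels among the members, with 60.9 CPM in G1 (54.7 to 67.5), 29.2 CPM in S and 19.4 CPM in G2M cells. Among G1 cells its log2 ratio to Ctrl was -1.39 at 1-day, -2.26 at 3-day and -3.01 at 7-day. Its G2M cells held 8.43, 4.88 and 5.38 CPM and its S cells 5.92, 11.4 and 5.42 CPM at 1-day, 3-day and 7-day. Every treated value was below that of Ctrl in the same phase, but only G1 cells had a lower level at each later time, and the S value at 1-day rests on 8 UMIs of 39 cells.

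**Figure D4:**
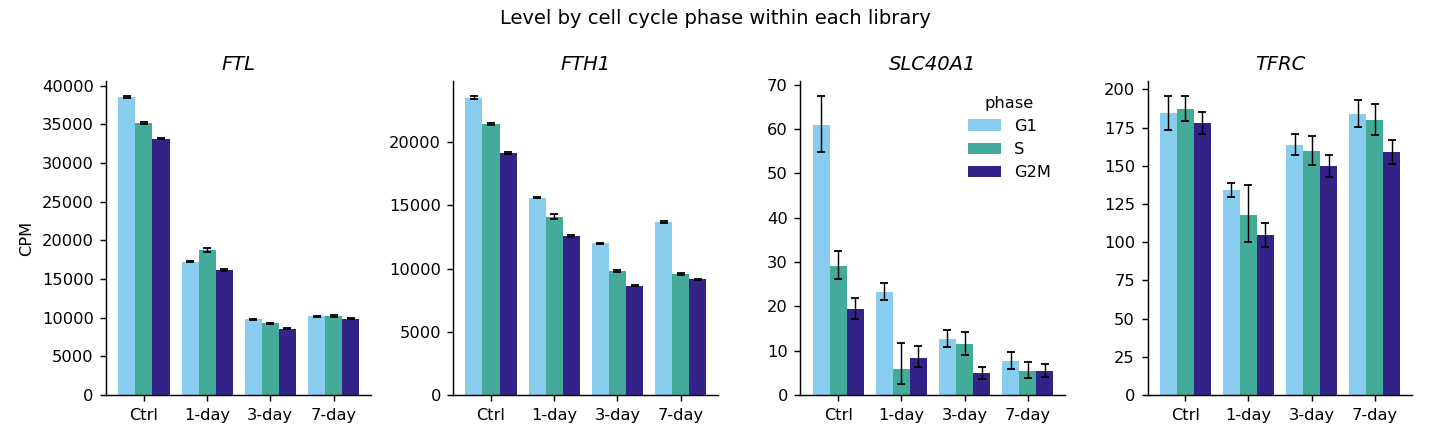
Level in CPM (vertical axis from 0) of *FTL*, *FTH1*, *SLC40A1* and *TFRC* in cells scored G1, S or G2M within each library, with exact 95% counting intervals. The treated libraries lie below Ctrl in each phase for *FTL*, *FTH1* and *SLC40A1*, and *SLC40A1* in Ctrl is highest in G1, at 60.9 CPM.

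The rest of the iron pathway was read from lists of genes, with the median log2 ratio of all genes to Ctrl at -0.07, 0.01 and 0.08 at 1-day, 3-day and 7-day. Of 14 iron uptake genes, 8 had a mean of at least 1 CPM. At 7-day, 1 of these was at least 2-fold higher and 1 at least 2-fold lower, a higher share close to that of all genes (12.9%, and 7.85% lower). The median log2 ratio of this list to Ctrl was -0.52 at 1-day, 0.26 at 3-day and 0.47 at 7-day. The higher one was *STEAP1*, a relative of *STEAP3*, at 9.13 CPM in Ctrl and 6.31, 27.9 and 58.0 CPM at 1-day, 3-day and 7-day. The lower one was *LCN2*, which binds iron-loaded siderophores, at 28.0 CPM in Ctrl against 13.0 CPM at 7-day. *SLC39A14* and *SLC39A8* are importers of zinc and of iron not bound to transferrin. *SLC39A14* was at 19.8 CPM in Ctrl, against 24.4, 33.2 and 35.9 CPM at 1-day, 3-day and 7-day. *SLC39A8* was at 15.7 CPM in Ctrl, with a lower level at 1-day (9.41 CPM) and higher ones at 3-day and 7-day (18.9 and 26.4 CPM). Of 5 export genes only *SLC40A1* reached a mean of 1 CPM. Of 6 storage and chaperone genes 5 did, and *PCBP2*, the relative of *PCBP1*, was at 265.8 CPM in Ctrl against 255.1 CPM at 7-day.

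Among 6 regulators above this limit, of 10 listed, 1 was at least 2-fold higher at 7-day and 0 lower (12.9% and 7.85% of all genes), with a median of -0.05. It was *HIF1A*, a subunit of the hypoxia-inducible factors, at 35.2 CPM in Ctrl against 77.8 CPM at 7-day. *EPAS1*, which encodes HIF-2α and is known to carry an IRE, was at 26.4 CPM in Ctrl, against 82.8, 31.4 and 20.7 CPM at 1-day, 3-day and 7-day. Of 16 heme genes above the limit, 1 was at least 2-fold higher and 3 lower at 7-day (12.9% and 7.85% of all genes), with a median of 0.21. *HMOX1*, the inducible heme oxygenase that frees iron from heme, was the higher one, at 20.1 CPM in Ctrl and 147.1, 88.2 and 67.7 CPM at 1-day, 3-day and 7-day. *HMOX2*, its constitutive relative, was at 57.6 CPM in Ctrl against 108.3 CPM at 7-day. *BLVRB*, a biliverdin reductase, was at 188.1 CPM in Ctrl against 66.7 CPM at 7-day, and *FECH*, which inserts iron into protoporphyrin to form heme, at 57.0 and 21.0 CPM. The third of the lower genes was *ABCG2*, a transporter of porphyrins, named after its values were seen, with a log2 ratio of -2.34. The 27 genes of mitochondrial iron and iron-sulfur clusters above the limit differed least, with 0 past 2-fold in either direction at 7-day and a median of -0.16. *ISCU*, the scaffold on which clusters are assembled, had a log2 ratio of -0.60, and *MMS19*, of cytosolic cluster delivery, had the highest of the list, at 0.56.

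*FTL* and *FTH1* are also known targets of NRF2, the transcription factor of the antioxidant response. Of 25 such targets, which include both chains, 18 were at least 2-fold lower and 1 (*HMOX1*) at least 2-fold higher at 7-day, beside 7.85% and 12.9% of all genes, with a median log2 ratio of -1.36. *FTL* is among the 18, and the list was chosen with earlier results of these data known. *AKR1B10* and *CBR1*, carbonyl-reducing enzymes, had the lowest 7-day ratios (-3.44 and -3.41), and *TXNRD1*, thioredoxin reductase, the highest after *HMOX1* (0.18). At 1-day and 3-day *TXNRD1* was below Ctrl, with log2 ratios of -0.99 and -0.32. The listed target *NQO1* was also set against the chains across the thinned cells of a library. Its Spearman rho with *FTL* was 0.01 in Ctrl and 0.14, 0.12 and 0.10 at 1-day, 3-day and 7-day. With *FTH1* it was -0.07, 0.15, 0.11 and 0.08. The median thinned cell held 14 *NQO1* UMIs in Ctrl and 5 at 7-day. The part of NRF2 was not tested.

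**Figure D5:**
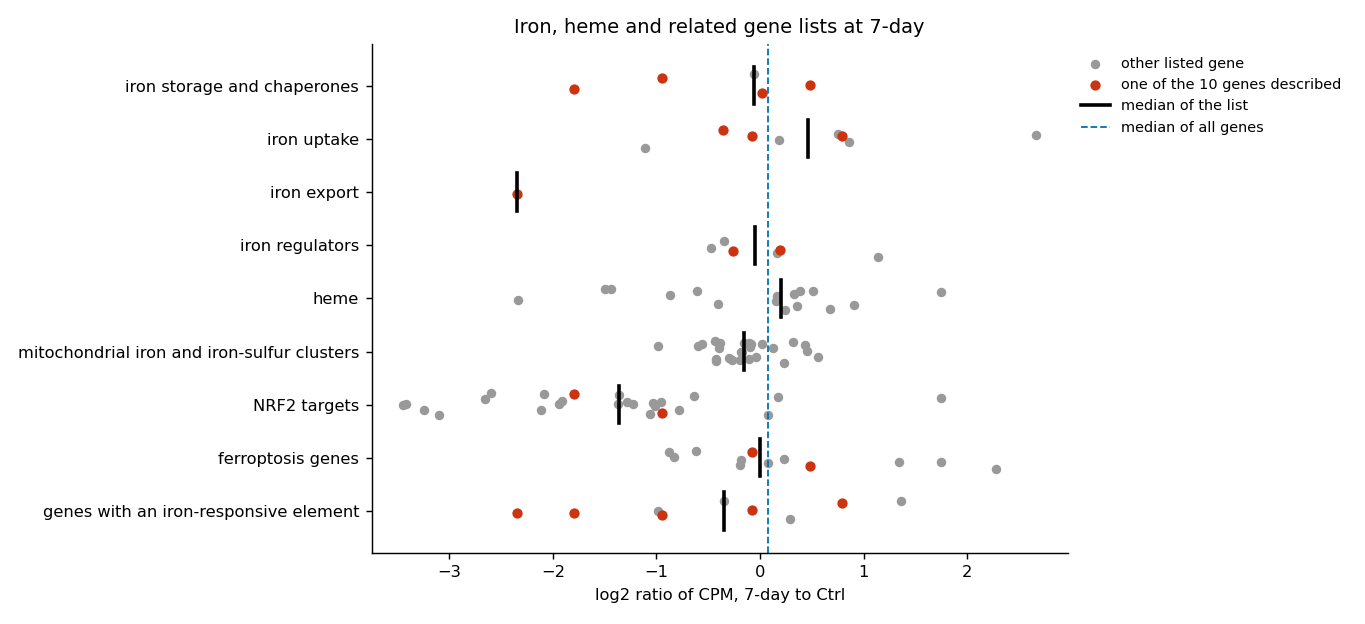
Log2 ratio of CPM of 7-day to Ctrl (horizontal axis) for each gene with a mean of at least 1 CPM in 9 lists (vertical axis), with the median of each list and of all genes. Red points are the 10 genes described. The NRF2 target list has the lowest median of the lists with more than 1 gene, at -1.36, and the iron uptake list the highest, at 0.47.

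The genes whose time course was nearest to that of *FTL* were sought among 2706 genes with a mean of at least 50 CPM, by the distance of their log2 ratios at 1, 3 and 7 days. In order they were *LY6E* (distance 0.191), *ADI1* (0.269), *EPHX1* (0.317), *ALDH1A1* (0.318) and *GPX2* (0.346). *EPHX1*, *ALDH1A1* and *GPX2* encode an epoxide hydrolase, an aldehyde dehydrogenase and a glutathione peroxidase. *GPX2* was at 1467 CPM in Ctrl, against 586.7, 342.2 and 403.4 CPM at 1-day, 3-day and 7-day. Nearest to *FTH1* were *MGST1* (0.119), *ATP5G1* (0.160), *C6orf132* (0.186), *LDHB* (0.187) and *ACOT13* (0.226). *MGST1*, a microsomal glutathione transferase, was at 630.1 CPM in Ctrl, against 490.2, 312.1 and 324.2 CPM. The chains were not each other's nearest genes. At a distance of 1.36 between them, 65 genes were nearer to *FTL* than *FTH1* was, and 903 nearer to *FTH1* than *FTL* was.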

How the data were processed

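The authors processed the reads with Cell Ranger (2.0.1 per the labels) on GRCh38 and deposited UMI counts per gene and cell, without normalization. Complete cells in barcode order were used, the last cell begun in each file being left out. The doublet caller Scrublet marked 43 of the cells with more than 200 genes and at most 20% mitochondrial UMIs that were retained, which stayed in except in the alternative. The gene limit follows the study, which gives no value for its mitochondrial limit.

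UMIs were summed per library. CPM have exact Poisson and ratios exact conditional 95% intervals (scipy 1.17.1), and shares of cells have exact binomial ones. The steps were tested on simulated data. Phases were scored in scanpy 1.11.5 with the lists of Seurat 5.3.0. The regression of mitochondrial reads, depth and cell cycle that the study used was not applied. The members and lists were chosen with earlier results of these data known. Beside the 10 members, the text names the 2 highest and 2 lowest 7-day ratios of each list among other genes with a mean of at least 10 CPM, and the 5 genes nearest to each ferritin chain. *ABCG2*, *GCH1* and *CDC14A* lie outside this rule and were named after their values were seen. *NQO1* also lies outside it and is named for its correlation with the ferritin chains over cells. One gene that the rule selects is not reported here. Alternatives changed the cell filters, doublets, scaling, averaging, depth, phase and part of the cells.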

Additional observations from a re-analysis of the deposited data

Results flagged for a closer look

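*STEAP3* lay above Ctrl at 1-day and 3-day and below it at 7-day, each by more than its counting interval, with log2 ratios of 0.57, 0.25 and -0.36. The difference between the times was not tested, since each is 1 library. The 7-day ratio ran from -0.70 among the later analysed cells, taken by barcode order, to -0.07 among the earlier ones.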

How the results depend on the processing

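No paired analysis was possible because there is a single library at every time point. The single library per time point and the cells later in barcode order, which were not analysed here, limit all values, and counting error is widest for *ACO1*, *SLC11A2*, *STEAP3* and *SLC40A1*. The cause was not tested for any shift given here. No alternative turned a log2 ratio of *FTL*, *FTH1*, *TFRC* or *SLC40A1* to the other side of Ctrl. Over the 10 members, 86 of 360 alternative log2 ratios lay outside the counting interval of the value reported. At 7-day *NCOA4* ran from 0.32 to 0.80. *ACO1* changed sides of Ctrl, to -0.07 at 1-day when thinned and to 0.08 at 3-day among G1 cells. *PCBP1* at 7-day ran from -0.04 to 0.15. The values that follow are those of *FTL*, *FTH1* and *TFRC* (log2 ratios to Ctrl) and of the *FTH1* to *FTL* ratio of UMIs that lay outside this interval. With a 10% mitochondrial limit, *FTL* was at -1.02, -1.91 and -1.79 at 1-day, 3-day and 7-day and *FTH1* was at -0.47, -1.01 and -0.94 at 1-day, 3-day and 7-day. Without doublets, *FTL* was at -1.03 at 1-day. Among G1 cells, *FTL* was at -1.16, -1.97 and -1.92 at 1-day, 3-day and 7-day, *FTH1* was at -0.59, -0.97 and -0.78 at 1-day, 3-day and 7-day, *TFRC* was at -0.46 and -0.0037 at 1-day and 7-day and the *FTH1* to *FTL* ratio was 0.612, 0.908, 1.23 and 1.35 in Ctrl, 1-day, 3-day and 7-day. In the first part of the cells in barcode order, *FTL* was at -0.99, -1.88 and -1.77 at 1-day, 3-day and 7-day, *FTH1* was at -0.45, -0.98 and -0.96 at 1-day, 3-day and 7-day and the *FTH1* to *FTL* ratio was 0.601 and 1.05 in Ctrl and 7-day. In the second part, *FTL* was at -1.08, -1.96 and -1.83 at 1-day, 3-day and 7-day, *FTH1* was at -0.51, -1.05 and -0.93 at 1-day, 3-day and 7-day and the *FTH1* to *FTL* ratio was 0.593 and 1.11 in Ctrl and 7-day. With every cell thinned to 18000 UMIs, *FTL* was at -1.04 and -1.90 at 1-day and 3-day, *FTH1* was at -0.49 and -0.99 at 1-day and 7-day, *TFRC* was at -0.12 at 3-day and the *FTH1* to *FTL* ratio was 1.11 and 1.05 in 3-day and 7-day. With median-of-ratios size factors, *FTL* was at -0.95, -1.90 and -1.85 at 1-day, 3-day and 7-day, *FTH1* was at -0.40, -0.99 and -1.003 at 1-day, 3-day and 7-day and *TFRC* was at -0.43 at 1-day. With totals without *FTL* and *FTH1*, *FTL* was at -1.07, -1.97 and -1.85 at 1-day, 3-day and 7-day and *FTH1* was at -0.52, -1.07 and -0.998 at 1-day, 3-day and 7-day. With totals without mitochondrial genes, *FTL* was at -1.05, -1.95 and -1.83 at 1-day, 3-day and 7-day and *FTH1* was at -0.49, -1.05 and -0.98 at 1-day, 3-day and 7-day. As a mean over cells, *FTL* was at -1.05 and -1.81 at 1-day and 7-day, *FTH1* was at -0.49, -1.01 and -0.97 at 1-day, 3-day and 7-day and the *FTH1* to *FTL* ratio was 0.592 and 1.06 in Ctrl and 7-day. Without the 10 cells with most UMIs of the gene in each library, a setting chosen after seeing the data, *FTL* was at -1.05, -1.93 and -1.82 at 1-day, 3-day and 7-day and *FTH1* was at -0.50, -1.03 and -0.98 at 1-day, 3-day and 7-day. With a mean of at least 10 CPM, 720, 781 and 835 genes were past the fold on the higher side and 595, 324 and 316 on the lower side at 1-day, 3-day and 7-day. With no limit on the mean, 3863, 3711 and 4295 genes were past the fold on the higher side and 4224, 4430 and 4049 on the lower side at 1-day, 3-day and 7-day. With a fold of at least 1.5, 2248, 2485 and 2894 genes were past the fold on the higher side and 2768, 2186 and 1904 on the lower side at 1-day, 3-day and 7-day. In the second part of the cells, 1 member (*SLC11A2*) was at least 2-fold higher than Ctrl at 7-day (1.0004) and also at 1-day (1.0008), against 0 over all cells. The main counts were 1298, 1386 and 1641 genes at least 2-fold higher and 1347, 1084 and 996 genes lower.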

Other observations

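Genes of ferroptosis, the iron-dependent form of cell death by lipid peroxidation, had a median 7-day log2 ratio to Ctrl of 0.00 over the 12 genes with a mean of at least 1 CPM, with 3 at least 2-fold higher and 0 lower, beside 12.9% and 7.85% of all genes. *ACSL4*, which loads membranes with the lipids that are peroxidised, was at 5.60 CPM in Ctrl and 12.7, 25.5 and 27.1 CPM at 1-day, 3-day and 7-day. *GPX4*, the peroxidase that repairs such lipids, was at 571.2 CPM in Ctrl, against 578.2, 402.6 and 373.3 CPM at 1-day, 3-day and 7-day. *AIFM2*, which reduces ubiquinone at the membrane, was at 52.8 CPM in Ctrl against 28.8 CPM at 7-day. *HMOX1*, also on this list, had a ratio of 1.75, and *GCH1*, which starts biopterin synthesis and was named after its values were seen, one of 1.34 at a mean of 4.69 CPM.

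Among 9 genes above this limit that textbooks list with an IRE, 1 was at least 2-fold higher and 2 at least 2-fold lower at 7-day, beside 12.9% and 7.85% of all genes, with a median of -0.35. The lower ones were *FTL* and *SLC40A1*, which belong to the genes chosen with these results known. The higher one, *CDC14A*, a phosphatase named after its values were seen, had a mean of 2.15 CPM. The members with a hairpin in the 5′ UTR, *FTL*, *FTH1* and *SLC40A1*, had 7-day ratios of -1.80, -0.95 and -2.34. *EPAS1*, also known for a 5′ IRE, had -0.35. *TFRC*, *CDC42BPA*, *SLC11A2* and *CDC14A*, known for a 3′ IRE, had -0.08, 0.29, 0.79 and 1.36. The 1-day ratios of *FTL*, *FTH1*, *SLC40A1* and *EPAS1* were -1.04, -0.48, -0.67 and 1.65. Those of *TFRC*, *CDC42BPA*, *SLC11A2* and *CDC14A* at 1-day were -0.52, 0.21, 0.86 and 0.80. The part of the IRE in these ratios was not tested. The antioxidant response element TGACNNNGC was sought on either strand in promoter windows of RefSeq genes, from 250 bases before to 50 bases after the start. Among the members with a window it was found for *NCOA4* (1 of 2 windows) and *PCBP1*, and it was in 13.3% of all windows. Sequence outside these windows was not searched, so the lack of a match for *FTL* says nothing of elements further away. *FTH1* had no window and was not searched.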
